A study of Homo sapiens with 6 samples.

Results

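H1299 is an NSCLC cell line that was established from a lymph node metastasis, and its response to an siRNA against MALAT1 is described here gene by gene. The comparison uses 2 of the 6 libraries of the study, the H1299 library labelled control and the H1299 library labelled si-MALAT1, which were chosen by their labels alone. The other 4 libraries come from the NSCLC lines H460 and A549, with the same treatments, and are set beside H1299 as context. Total RNA was sequenced in pairs of reads after removal of ribosomal RNA, and the authors deposited read counts and TPM for 46427 genes on GRCh38.

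The labels call the H1299 control non-treated, while the methods also describe cells that received a si-Control, and which of these was sequenced is not named. Loss of MALAT1 and exposure to a transfected siRNA therefore cannot be told apart. The 2 libraries held 66549197 reads in the control and 60870796 reads in si-MALAT1. With 1 library a side there is no replicate and no p-value was computed. Log2 fold changes give si-MALAT1 over control, from read counts scaled by RLE size factors over the 6 libraries, with 1 added. The 95% interval beside it was derived by the exact Clopper-Pearson method from the share of a gene's reads that fell in si-MALAT1. The interval covers counting error only and may be too narrow because the files do not say whether both reads of a pair were counted.

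MALAT1 is an abundant long noncoding RNA that stays in the nucleus and gathers in nuclear speckles, which store splicing factors. It is known for its high level in metastatic lung tumours. An siRNA works through Argonaute proteins, and bases 2 to 8 of its guide strand, the seed, can also pair with short words in the 3′ UTRs of other mRNAs. During S phase, dividing cells make the replication-dependent histones, whose mRNAs end in a stem-loop in place of a poly(A) tail.

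The targeted gene was read first. MALAT1 (chr11:65497738-65506516, plus strand, a lncRNA) had 407551 reads in the control and 47935 in si-MALAT1. The log2 fold change was -2.96 (95% interval from -2.97 to -2.94). It took 0.612% of the reads of the control and 0.0787% of those of si-MALAT1, and its TPM was 805 and 110. The library labelled si-MALAT1 thus held less MALAT1. TALAM1, annotated as an RNA antisense to MALAT1, had 1717 and 471 reads, but strand use in the counting is not stated, so its reads cannot be told apart from those of MALAT1. NEAT1, the paraspeckle lncRNA that lies next to MALAT1, gave different directions in the deposited units. Its read counts were 79320 and 52583, a log2 fold change of -0.46, while its TPM was 66.5 in the control and 93.4 in si-MALAT1.

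The line was checked against markers. The epithelial cadherin CDH1 had 2 and 12 reads in H1299, where the mesenchymal filament VIM had 227383 and 225705. Not all epithelial markers were low, since the keratins KRT8 and KRT18 had 14592 and 11408 reads and 27903 and 23857. Defining leukocyte, endothelial and stromal markers (PTPRC, CD3E, CDH5 and LUM) were at 0 in both H1299 libraries. H1299 stood apart from the other lines at AKR1B10, an NRF2 target, with 23 and 20 reads against 85180 and 74343 in H460 and 188600 and 148925 in A549.

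A mean of at least 50 reads over the H1299 pair was found for 15562 genes. Of these, 1640 were at least 1.5-fold higher in si-MALAT1 (10.5%) and 1327 were at least 1.5-fold lower (8.53%). With a log2 fold change of 1.5 as the threshold, 89 genes were higher (0.572%) and 63 were lower (0.405%). The whole counting interval lay past 1.5-fold for 904 higher and 746 lower genes. Genes past 1.5-fold had fewer reads than the rest, with a median of the mean read count of 594 for the higher and 713 for the lower genes against 1330 for all tested genes. At the edge of the 1.5-fold threshold, CD72 with 85 and 117 reads was just outside on the higher side. RHEBP1 with 206 and 125 reads was just inside and CLCN2 with 656 and 399 reads just outside on the lower side.

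**Figure D1:**
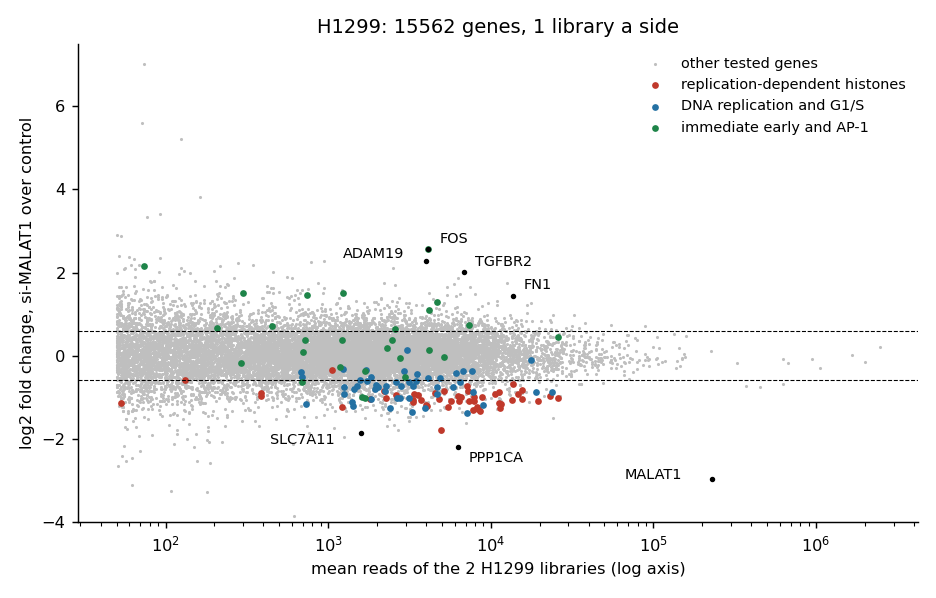
The log2 fold change of si-MALAT1 over control is plotted against the mean reads of the 2 H1299 libraries on a log axis, 1 point a gene, for the 15562 genes tested. Dashed lines mark 1.5-fold, the histone and DNA replication lists lie almost wholly below 0, immediate early genes reach 2.58 at FOS, and MALAT1 stands at -2.96.

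Words in 3′ UTRs were compared with the fold changes of their genes. Among 15899 words of 7 bases in the 3′ UTRs of 12764 tested genes, ranked by the slope divided by its standard error, the first on the lower side in H1299 was TGAATCA, in 1671 genes, and the next ATGAATC, in 1233 genes. These share the core TGAATC with an A after it or before it. Genes with TGAATCA lay 0.27 lower on the log2 scale and genes with ATGAATC 0.28 lower, with 3′ UTR length and base composition as covariates. The first on the higher side by the same rank was TGGTGCT, in 2051 genes, at 0.08. In H460 and A549 the same pair of words ranked first and second on the lower side. Copies are shown in 5 genes, the lowest in H1299 among genes with a copy, by the bound of the interval nearest 0. The single copy in MALAT1, an RNA of 8779 bases, is shown with them. Among genes with 3′ UTRs of 3195 bases or more, 1132 had a copy and 1421 had none. The word is in capitals, and each stretch is read 5′ to 3′ on the RNA's strand of GRCh38.
PPP1CA, chr11:67398380-67398403, minus strand: cttttctttttttaATGAATCAat
CIAO2B, chr16:66932117-66932140, minus strand: ttaccgttgttttctTGAATCAct
GOLM2, chr15:44415307-44415330, plus strand: attagggtagggagATGAATCAaa
SLC7A11, chr4:138166701-138166724, minus strand: gtgtttcagcgtactTGAATCAag
DNAAF4, chr15:55430499-55430522, minus strand: ataaactgtttgactTGAATCAtt
MALAT1, chr11:65500923-65500946, plus strand: tcaggcttatactcATGAATCttg

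The words were picked from these same H1299 fold changes, so the shares given here describe that choice and are no separate support for it. Of the 12764 genes with a 3′ UTR, 7.87% were at least 1.5-fold lower. Among the 2259 genes with 1 or more copies of the word, 296 were lower (13.1%), and among the 10505 genes with no copy, 708 were lower (6.74%). The 481 genes with the 8-base form ATGAATCA, which holds both words at once, had 98 lower members (20.4%). The 132 genes with 3 or more copies had 29 (22.0%). The share was thus larger in genes with several copies or the longer word than in genes with a single short one. Genes with a copy also had longer 3′ UTRs, with a median of 3198 bases against 1038 bases, and long genes as a class were higher in H1299 as described further on, so the comparison was made again within 5 classes of 3′ UTR length, each with about the same number of genes. In the class with the shortest 3′ UTRs, 39.0% of 59 genes with a copy and 11.9% of 2502 genes without one were lower. In the class with the longest, the shares were 8.13% of 1132 and 2.67% of 1421. Within each class the median log2 fold change was lower with a copy than without, by 0.31 in the middle class and by 0.18 in the longest.

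**Figure D2:**
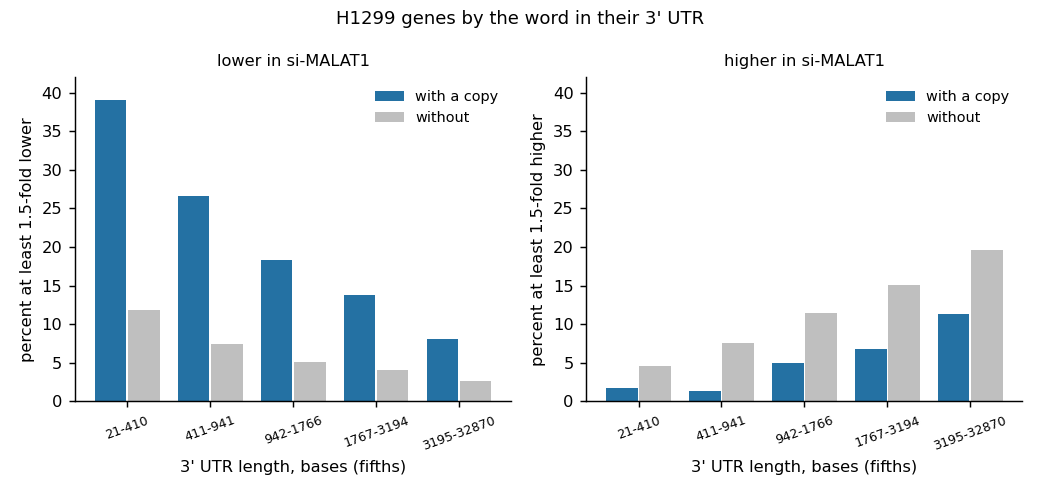
Bars give the percent of H1299 genes at least 1.5-fold lower (left) and higher (right) in si-MALAT1, by 5 classes of 3′ UTR length in bases, for genes with a copy of TGAATCA or ATGAATC and genes without. In every class the bar with a copy is the taller one on the left, 39.0% against 11.9% in the shortest class, and the shorter one on the right, 11.3% against 19.6% in the longest.

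Copies and lower levels did not always occur together. Of the 1004 lower genes with a 3′ UTR, 296 (29.5%) had a copy, against 188 of the 1316 higher genes (14.3%) and 17.7% of all genes with a 3′ UTR, so most lower genes had none. TBL1XR1, a subunit of a corepressor complex, carries 6 copies and had 13892 and 6280 reads, a log2 fold change of -1.01. FLRT2, PGR and SLC8A1 carry 6 copies as well and had log2 fold changes of -0.02, -0.02 and -0.06. Whether the siRNA's seed matches the word was not tested, since its sequence is not given in the sources used here.

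The coding genes that were lowest by the bound of the interval nearest 0 include an enzyme, a transporter and a histone. PPP1CA (Gene ID 5499, chr11:67398183-67401858), a catalytic subunit of protein phosphatase 1, had 10420 reads in the control and 2069 in si-MALAT1, a log2 fold change of -2.20 (-2.27 to -2.13). GOLM2, a Golgi membrane protein, had 7906 and 2027 reads, and CIAO2B, which takes part in cytosolic iron-sulfur assembly, had 2032 and 478. The log2 fold changes of these genes were -1.83 and -1.95. SLC7A11 (Gene ID 23657, chr4:138164097-138242349), the cystine transporter that feeds glutathione synthesis, had 2533 and 636 reads, a log2 fold change of -1.86 (-1.99 to -1.74). It was at -0.15 in H460 and -0.90 in A549. H2AC7, an H2A histone, was at 7841 and 2088 reads, or -1.78. MAIP1, a mitochondrial protease partner, was at 1001 and 208 reads, or -2.13. KTI12 had 326 and 49 reads, UTP14C 249 and 49, GRAPL 93 and 15, and ZNF837 118 and 21, so their intervals were wide. UTP14C and GRAPL have near-identical copies elsewhere in the genome, and their counts are uncertain. TMEM64 had 4284 and 1127 reads, or -1.79, and DNAAF4 had 305 and 65, or -2.08.

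Among the higher coding genes were a transcription factor, a protease and a receptor. FOS (Gene ID 2353, chr14:75278828-75282230), an immediate early gene and a part of the AP-1 factor, had 1276 reads in the control and 6990 in si-MALAT1, a log2 fold change of 2.58 (2.50 to 2.67). ADAM19, a membrane-bound metalloprotease, had 1488 and 6546 reads, a log2 fold change of 2.27 (2.19 to 2.35). TGFBR2 (Gene ID 7048, chr3:30606472-30694142), the type II receptor that starts TGF-beta signalling, had 2919 and 10839 reads, a log2 fold change of 2.02 (1.96 to 2.08). BMF, a BH3-only protein that promotes apoptosis, had 1016 and 4013 reads, or 2.11. These genes had at least 4013 reads in si-MALAT1, while several others with large folds had few. OR3A1 had 16 and 168 reads, DUSP8 14 and 140, ALDH1A1 12 and 89, PLA2G4B 85 and 350, HAS3 105 and 456, and SEMA7A 133 and 560. ZNF469 had 293 and 1286 reads, or 2.26. OR3A1 belongs to the olfactory receptor family and ALDH1A1 makes retinoic acid from retinal. OR3A1 and PLA2G4B have close paralogs or overlapping neighbours, so their counts are uncertain.

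**Figure D3:**
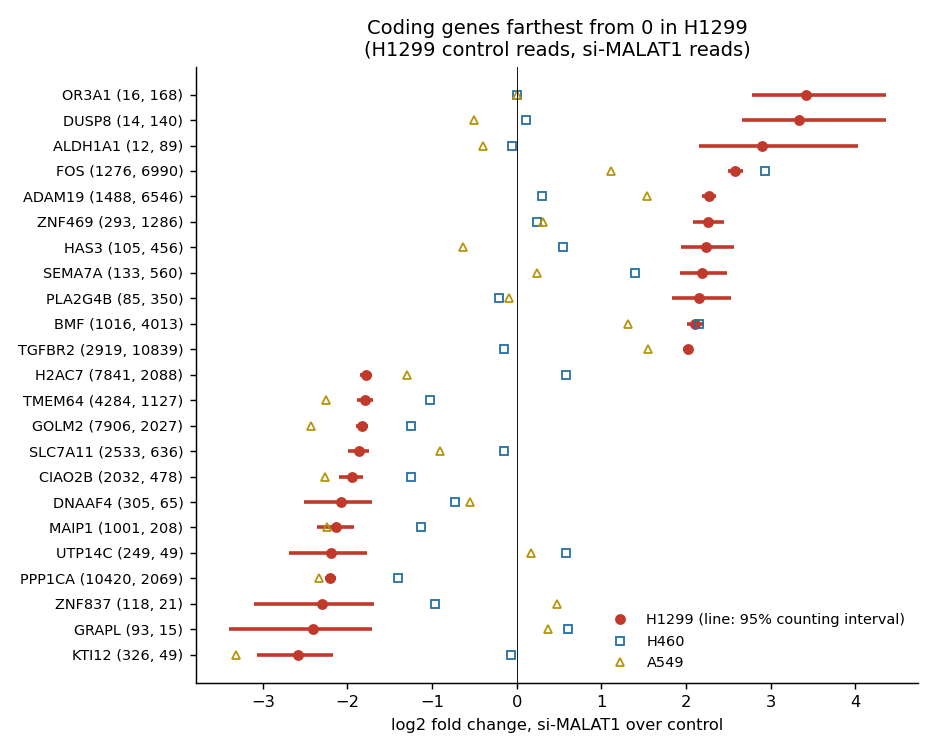
Points give the log2 fold change of si-MALAT1 over control in H1299, with the 95% counting interval as a line, for the coding genes whose interval lies farthest from 0, without HLA-G, which has 0 reads in the control. Squares and triangles give H460 and A549. PPP1CA is below -1 in the 3 lines, while TGFBR2 is at 2.02 in H1299, 1.55 in A549 and -0.15 in H460.

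Of 27190 genes with a read in the H1299 pair, 25059 had one in the control and 24867 in si-MALAT1. The genes given here had no read in 1 library. Among such genes with a mean of at least 10 reads, they were among those with the most reads in the other. HLA-G, a nonclassical MHC class I gene, had 0 reads in the control and 148 in si-MALAT1, which is at least 54.0-fold higher against a floor of 3 reads, but in H460 it had 745 reads in the control and 0 in si-MALAT1. Reads of HLA genes can be placed on close paralogs, so its counts are uncertain. SEMA3F-AS1 had 0 and 50 reads (at least 18.3-fold higher) and OTOGL 0 and 41 (at least 15.0-fold higher). TNNI3K had 99 and 0 reads (at least 30.1-fold lower) and LIMS3 70 and 0 (at least 21.3-fold lower). TNNI3K and LIMS3 overlap or copy other genes, so their counts are uncertain.

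Of the abundant RNAs past 1.5-fold, 5 were named in each direction by their mean TPM. On the higher side were TUBA1A (25145 and 37653 reads), TWF1 (43420 and 65654), SDCBP (17911 and 28918), AKAP12 (71536 and 106643) and the mitochondrial serine tRNA TRNS1 (587 and 865). TUBA1A and TWF1 are cytoskeletal, an alpha tubulin and an actin-binding twinfilin. On the lower side were the small nucleolar RNAs SNORD3B-1 (44401 and 25382 reads) and SNORA73A (17287 and 10091), the pre-ribosomal RNA RNA45SN1 (793977 and 455508), LDHB (61937 and 35823) and the linker histone H1-2 (35631 and 16064). RNA45SN1 is a repeated gene of which most RNA was removed before sequencing, so its counts are uncertain. By class, 27 of 86 snoRNAs were lower (31.4%) and 1 was higher, with a median log2 fold change of -0.43. The 1627 lncRNAs had 14.9% higher and 11.9% lower, and the 12885 protein-coding genes 10.3% and 7.89%.

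Beside MALAT1, the lncRNAs lowest by the same rule were antisense RNAs with few reads. ZIM2-AS1 had 188 and 39 reads, PAN3-AS1 246 and 60, and DDX11-AS1 290 and 75. The highest were ELOVL2-AS1 with 50 and 200 reads, HECW2-AS1 with 23 and 100, LINC00565 with 52 and 190, and LINC02029 with 40 and 131. Reads of an antisense RNA cannot be told apart from those of its partner gene where strand use is not stated. SNHG3, a host gene of small nucleolar RNAs, had 5744 and 2426 reads, or -1.11. Of 24 tested host genes of small nucleolar RNAs, 9 were at least 1.5-fold lower, 0 were higher and the median was -0.44.

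The largest shift of any list in H1299 was in the replication-dependent histones, the core and linker histones that package newly copied DNA. Of 49 tested members, 48 were at least 1.5-fold lower and 0 were higher, the remaining one was also below 0, and the median log2 fold change was -1.03. Over all tested genes, 8.53% were lower, 10.5% were higher and the median was 0.03, and each H1299 list described here is to be read against these shares. The summed TPM of the list was 16600 in the control and 8400 in si-MALAT1. The linker histones H1-2 and H1-5 had 35631 and 16064 reads and 27222 and 11778 reads. The H3 gene H3C2 had 21529 and 9575 reads, and the member nearest 0, H2AC15, had 1234 and 884, a log2 fold change of -0.35. Members are near-identical copies that can share reads, so the list is better read as a sum than gene by gene. In H460 22 of 47 tested members were at least 1.5-fold higher, where 6.59% of all tested genes were higher, and the median was 0.58. In A549 2 of 46 were higher and 1 was lower (8.26% and 8.27% of all), with a median of 0.19. The H1299 libraries thus stood apart in direction, and the difference between the lines was not tested.

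Histone mRNAs of this class carry the stem-loop. A stem of 6 bases, GGCTCT or GGCCCT, followed by 4 bases and the reverse complement of the stem was looked for in the annotated 3′ UTRs. It was found in 43 of the 49 list members and in 20 of 12715 other genes (0.157%). Of those 20 genes, 11 are histone genes outside the list, among them H2AX, with 4991 and 2390 reads, and H3C14, with 10554 and 3751. H1-2, H3C14 and H2AX are shown with the stem-loop in capitals, since these 3 span the linker, core and variant histones that carry it. The other 9 genes are not histones and ran from -1.12 (NLN) to 0.37 (ZFAND3).
H1-2, chr6:26055741-26055762, minus strand: aaaGGCTCTTTTCAGAGCCacc
H3C14, chr1:149840689-149840710, minus strand: aaaGGCTCTTTTCAGAGCCacc
H2AX, chr11:119094895-119094916, minus strand: aaaGGCCCTTTTAAGGGCCacc

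Of 12 tested histone variants that were listed as replication-independent, 3 were lower (H2AX, CENPA and H2BU1), 0 were higher and the median was -0.27. H2AX and H2BU1 carry the stem-loop of the replication-dependent class, so 2 of these 3 go against the list's name. The H3.3 genes H3-3A (9304 and 9250 reads) and H3-3B (37163 and 36992) were at 0.12. Of 12 genes of histone transcription and 3′ end processing, 1 was lower, ERI1 with 3490 and 1877 reads, and SLBP, the protein that binds the stem-loop, had 7402 and 5789, or -0.22. Both lists were drawn up after the histone values were seen.

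Genes of DNA replication and the G1/S step were lower as a list too. Of 49 tested members 35 were at least 1.5-fold lower and 0 were higher, with a median of -0.72, and 48 of 49 lay below 0. The replicative helicase subunit MCM3 had 10497 reads in the control and 3705 in si-MALAT1, a log2 fold change of -1.37 (-1.43 to -1.32), and MCM2 had 12801 and 5129, or -1.19. MCM7 (31783 and 15851 reads) and MCM4 (25139 and 12645) were at -0.87 and -0.86. The thymidylate synthase TYMS had 5685 and 2167 reads, the chromatin assembly subunit CHAF1A 3473 and 1324, and the transcription factor E2F1 2035 and 811. The list's exceptions were E2F7 with 3063 and 3076 reads, or 0.14, and RRM2, the small subunit of ribonucleotide reductase, with 19144 and 16258, or -0.10. In H460 6 of 49 members were higher and 2 lower, where 6.59% and 6.81% of all tested genes were, with a median of 0.24, and in A549 3 were higher and 8 lower, with a median of -0.14.

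Mitosis genes were shifted less. Of 51 tested members 17 were lower and 0 were higher, with a median of -0.48. MAD2L1, a spindle checkpoint protein, had 3899 and 1406 reads, a log2 fold change of -1.34. The mitotic cyclin CCNB1 had 32547 and 18167 reads, or -0.71, and AURKA, a spindle kinase, 17374 and 8374, or -0.92. TOP2A and the proliferation marker MKI67 had 37450 and 24462 reads and 17274 and 14440 reads, or -0.48 and -0.13. The list's highest member was SPC25, with 841 and 933 reads, or 0.28. In bulk RNA, fewer cells in a phase of the cycle and less RNA per cell cannot be told apart.

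Of 25 tested G1 cyclins, CDK inhibitors and pocket proteins, a list also drawn up after values were seen, 5 were higher and 2 lower, with a median of 0.01. Those higher were the CDK inhibitors CDKN2B (3215 and 6416 reads, 1.13) and CDKN1A (3199 and 4792, 0.71), the cyclin CCND2 (648 and 1770, 1.58), CDK6 (29594 and 46593, 0.79) and E2F3 (3515 and 5048, 0.65). Those lower were CDKN2D and CDKN2C, at -0.63 and -0.59.

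The promoters of these groups were compared. RefSeq promoters on GRCh38, from 250 bases before to 50 after the start, matched 11628 of the tested genes. The E2F-type words TTTCCCGC and TTTGGCGC, searched on both strands, occurred in 21 of 42 replication promoters (50%), in 4 of 44 mitosis promoters (9.09%), in 0 of 45 histone promoters and in 3.70% of all 11628. They occurred in 5.91% of the 931 lower genes and 1.90% of the 1212 higher genes. The word CCAAT, on either strand, occurred in 84.4% of histone promoters, 75% of mitosis promoters, 59.5% of replication promoters and 37.0% of all. It occurred in 44.9% of the lower genes, 31.2% of the higher genes and 47.4% of 19 immediate early promoters. The CRE word TGACGTCA occurred in 4.51% of the lower genes, 4.37% of the higher genes and 3.33% of all. The AP-1 word TGACTCA occurred in 4.21% of the higher genes, 1.83% of the lower genes and 2.90% of all. A word in a promoter is a description and not a bound site. The word, or in GINS3 its reverse complement, is shown in capitals in 3 replication promoters, since these genes were among the lowest of the list.
MCM3, chr6:52284901-52284924, minus strand: atggtacgTTTCCCGCcaccgcgg
E2F1, chr20:33686390-33686413, minus strand: aaaaaggaTTTGGCGCgtaaaagt
GINS3, chr16:58392458-58392481, plus strand: ccccgggcGCGGGAAAcgagtttc

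**Figure D4:**
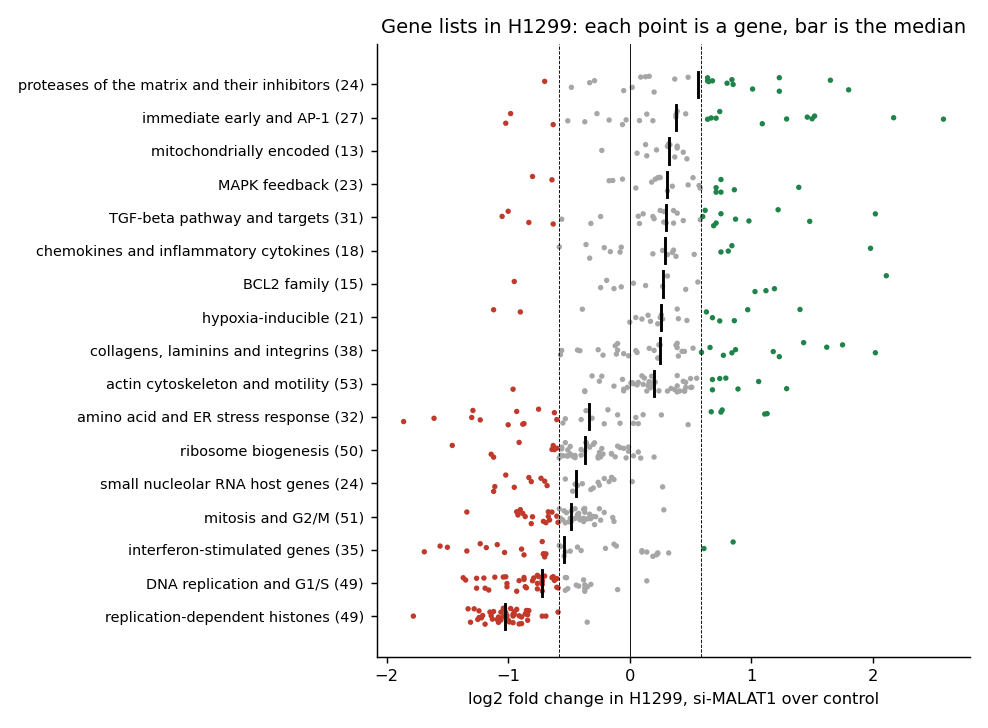
Each point is a tested gene of a list at its log2 fold change in H1299, the black bar is the list's median, and the number of genes stands in brackets. Points past 1.5-fold are red where lower and green where higher, and medians run from -1.03 in the replication-dependent histones to 0.56 in the matrix proteases.

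Ribosome biogenesis genes, which build ribosomal subunits in the nucleolus, had 8 of 50 tested members lower and 0 higher, beside 8.53% and 10.5% of all tested genes, with a median of -0.37 and 46 of 50 below 0. NOL6, a pre-ribosomal RNA processing factor, had 1270 and 422 reads, or -1.46, and NPM1, the abundant nucleolar chaperone, had 106396 and 82532, or -0.24. The cytosolic ribosomal proteins themselves had 0 of 75 members past 1.5-fold in either direction and a median of -0.13. Splicing factors and nuclear speckle proteins, the class that shares the speckles with MALAT1, had 0 of 51 past 1.5-fold in either direction and a median of -0.11. The glycolysis genes had 2 higher and 4 lower of 27, with a median of -0.02, and PGAM1, a glycolytic mutase, had 15916 and 6035 reads.

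Of the interferon-stimulated genes, which respond to viral RNA and to interferon, 15 of 35 tested members were lower and 2 higher, with a median of -0.54. ISG15, a ubiquitin-like modifier, had 4788 reads in the control and 1486 in si-MALAT1, a log2 fold change of -1.56 (-1.64 to -1.47). USP18, which removes ISG15 from proteins, had 586 and 165 reads, and IFIT1, which binds foreign RNA ends, 2549 and 824. The higher members were ISG20, with 369 and 514 reads, and ZNFX1, with 5507 and 9052. The medians were 0.26 in H460 and -0.96 in A549.

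In the amino acid and ER stress response, 12 of 32 tested members were lower and 5 higher, with a median of -0.33. The lower members include SLC7A11, given above, the asparagine synthetase ASNS (10841 and 3244 reads, -1.61), the serine pathway enzymes PHGDH (3410 and 1328, -1.23) and PSAT1 (5901 and 2694), the transporter SLC7A5 (6265 and 2315, -1.30) and the transcription factor ATF4 (14711 and 8841, -0.60). Higher members were VLDLR (1781 and 3564, 1.13), DNAJB9 (1201 and 2374, 1.11), SESN2 (1134 and 1758, 0.76), PPP1R15A (1341 and 2055, 0.75) and ATF3 (170 and 247, 0.67). The abundant ER chaperones HSP90B1 and HSPA5 were at -0.10 and 0.48.

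Immediate early genes and AP-1 members, which growth factors and stress induce within minutes, had 11 of 27 tested members higher and 3 lower, with a median of 0.38. FOS is given above. JUN had 2873 reads in the control and 6416 in si-MALAT1, a log2 fold change of 1.29 (1.23 to 1.35), FOSB 686 and 1797, EGR1 424 and 1067, and the orphan receptor NR4A3 28 and 119. The lower members were CCN1 (2337 and 1050 reads), the AP-1 subunit FOSL1 (2222 and 1025) and CCN2 (863 and 509), so the list did not move one way. MAPK feedback genes, which damp ERK signalling, had 6 of 23 higher (26.1%, beside 10.5% of all tested genes) and 2 lower (8.70%, beside 8.53%), with a median of 0.31. The phosphatase gene DUSP1 had 1240 and 2973 reads, or 1.39, and the receptor EPHA2 11957 and 6269, or -0.80.

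Of the matrix proteases and their inhibitors, 12 of 24 tested members were higher and 1 lower, with a median of 0.56. The collagenase MMP1 had 3869 reads in the control and 11120 in si-MALAT1, a log2 fold change of 1.65, and the membrane protease MMP14 had 10592 and 22625, or 1.23. MMP10 had 97 and 312 reads, or 1.80, and the protease inhibitor SERPINE2 2412 and 5182, or 1.23. The urokinase gene PLAU (23145 and 21435 reads) and its receptor PLAUR (14606 and 12865) were at 0.02 and -0.05. The lower member was ADAM9, with 19482 and 10971 reads. In H460 the list had a median of -0.40 and in A549 of -0.01.

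Collagens, laminins and integrins, the matrix and the receptors that grip it, had 11 of 38 tested members higher and 0 lower, with a median of 0.25. The collagen receptor subunit ITGA2 had 6170 and 18952 reads, a log2 fold change of 1.75 (1.71 to 1.79). The matrix protein FN1 had 7940 and 19555 reads, or 1.43, and its receptor subunit ITGA5 6971 and 14960, or 1.23. The integrin beta subunits differed, with ITGB8 at 496 and 1391 reads and ITGB3 at 1542 and 3198, while ITGB1, the most abundant, had 93492 and 116751, or 0.45. The list's members have long transcripts, with a median exonic length of 6814 bases.

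The TGF-beta pathway had 10 of 31 tested members higher (32.3%, beside 10.5% of all tested genes) and 4 lower (12.9%, beside 8.53%), with a median of 0.30. Beside TGFBR2, the co-receptor TGFBR3 had 3665 and 9324 reads, or 1.48, and LTBP1, which stores latent TGF-beta in the matrix, 2215 and 4714, or 1.22. The lower members were ID1 (12873 and 5682 reads), ID3 (5554 and 2858), SMAD6 (369 and 168) and CCN2 (863 and 509). ID1, ID3 and SMAD6 are known targets of BMP signalling. The ligand TGFB1 had 2559 and 2997 reads, or 0.36. The list's summed TPM was 707 in the control and 695 in si-MALAT1, and its median exonic length was 6004 bases.

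Hypoxia-inducible genes had 6 of 21 higher and 2 lower, with 18 of 21 above 0 and a median of 0.26, and with LOX (335 and 811 reads) at 1.40 and STC2 (718 and 302) at -1.12. Chemokines and inflammatory cytokines had 4 of 18 higher and 0 lower, with a median of 0.29, and their highest, CSF1, had 61 and 223 reads. The BCL2 family had 4 of 15 higher, BMF, BCL2L11 (855 and 1781 reads), BIK (128 and 256) and BAK1 (1145 and 2136), and 1 lower, PMAIP1 (2440 and 1155). Of 26 p53 targets, 5 were higher and 1 lower, with a median of 0.03. The 13 mitochondrially encoded mRNAs had a median of 0.32, with 12 of 13 above 0 and 0 past 1.5-fold. Actin cytoskeleton genes had 7 of 53 higher and 1 lower, the focal adhesion protein VCL, with 29102 and 13679 reads, or -0.96.

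**Figure D5:**
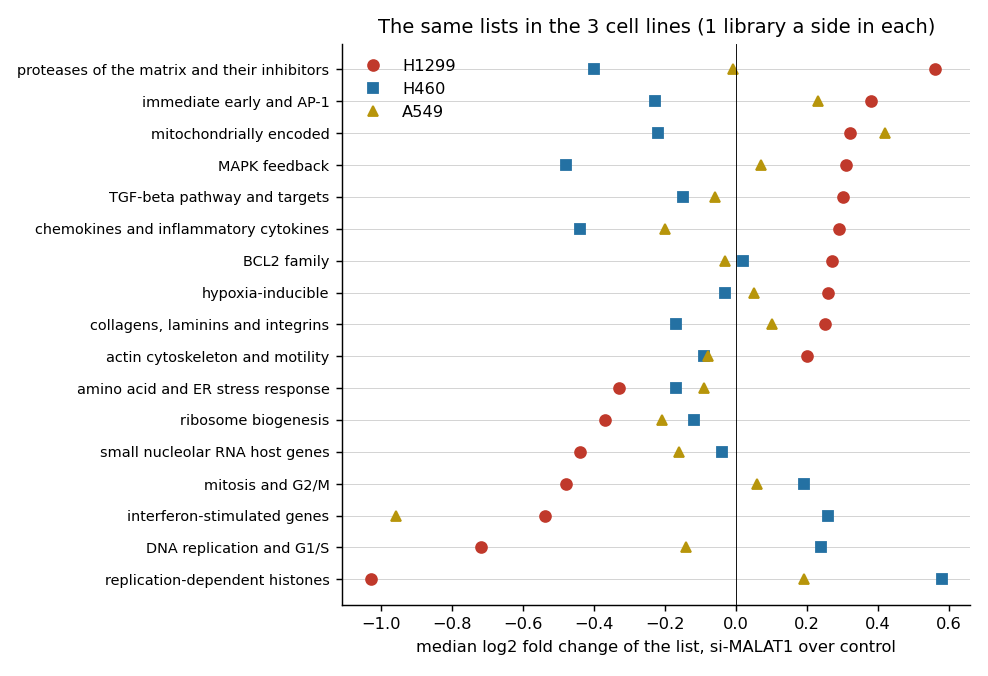
Symbols give the median log2 fold change of each list in H1299 (circles), H460 (squares) and A549 (triangles), from 1 library a side in each line. The replication-dependent histones lie at -1.03, 0.58 and 0.19 and the matrix proteases at 0.56, -0.40 and -0.01, in that order.

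Fold changes in H1299 moved with the length of the RNA. With the tested genes in 10 equal classes of exonic length, the shortest class, up to 1316 bases, had a median log2 fold change of -0.16, and the longest class, from 9898 bases, one of 0.22. The shortest class held 82 higher and 241 lower genes and the longest 238 and 62. In H460 the medians of the same classes were 0.09 and -0.08, and in A549 0.01 and 0.03. The histone list is short, with a median exonic length of 493 bases, and with each gene set against the median of its length class, an alternative chosen after the data were seen, its median was -0.86. The replication list, at a median of 3875 bases, was at -0.80 on this scale, the matrix proteases were at 0.42 and the collagens, laminins and integrins at 0.16. The TGF-beta pathway was at 0.19 on it. By chromosome, 19 had the lowest median, -0.13, with 46 higher and 122 lower of 1079 genes, and 4 the highest, 0.13, with 76 and 30 of 571. The part of RNA length in the values of the lists was not tested.

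Around MALAT1, 50 of 75 annotated genes within 500 kb were tested, MALAT1 included, and 4 were higher and 7 lower, beside the 10.5% and 8.53% of all tested genes. Beside MALAT1 and TALAM1, the lower ones were the DNA polymerase alpha subunit POLA2 (2540 and 1126 reads), FOSL1 (2222 and 1025), DRAP1 (17127 and 8712), TIGD3 (161 and 75) and CCDC85B (2160 and 1167). SYVN1, a ubiquitin ligase of the ER, had 395 and 777 reads, or 1.10, and the other three higher genes had a mean under 200 reads. POLA2 and FOSL1 also belong to lists above.

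The H1299 calls were set beside the other lines in the 12733 genes with a mean of at least 50 reads in each line's pair. Of 1045 genes higher in H1299, 151 were higher and 46 lower in H460, where 4.97% and 5.22% of these genes were, and 324 were higher and 25 lower in A549, where 6.61% and 7.55% were. Of 1035 genes lower in H1299, 191 were lower and 64 higher in H460, and 402 were lower and 20 higher in A549. Neither other line passed 1.5-fold in the same direction for 672 of the higher genes (64.3%) and 588 of the lower ones (56.8%), while over all 12733 genes neither line was higher for 90.2% and neither was lower for 89.5%. Both did for 102 (9.76%) and 146 (14.1%), beside 1.74% and 2.26% of all 12733 genes. Coding genes with a large gap to both other lines were STC1, a secreted glycoprotein hormone, with 2872 and 9658 reads in H1299 and log2 fold changes of 1.88 in H1299, -0.44 in H460 and -0.37 in A549, and DUSP8, ALDH1A1, PLA2G4B, ZNF469 and NR4A3, given above. On the lower side they were SULT1A3 (188 and 46 reads), ATOH8 (248 and 103), MESP1 (232 and 94) and the histones H1-5, H3C14 and H3C15 (9841 and 3495). SULT1A3 has a near-identical copy, so its reads are uncertain. These gaps rest on 1 pair of libraries in each line, and none of them was tested.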

How the data were processed

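Total RNA of H1299, H460 and A549 cells, 1 control and 1 si-MALAT1 library a line, was sequenced by the authors. Per the labels and the submitters' processing notes, bcl2fastq 2.20.0, Trimmomatic, HISAT2 2.1.0 and StringTie 1.3.4b were used on GRCh38, and the authors deposited read counts per gene and TPM values. Whether strand was used in counting is not given in the sources used here. The table also holds 18 columns of samples of another study, which were not used.

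Groups were taken from the labels. Deposited counts were scaled by RLE size factors over the 17834 genes with a read in each of the 6 libraries. The log2 fold change was computed with a pseudocount of 1, and genes with a mean of at least 50 reads over the pair were kept. Thresholds were 1.5-fold and a log2 fold change of 1.5. The 95% Clopper-Pearson interval of each gene covers counting error only. Zero counts were bounded with a floor of 3 reads. With 1 library a side no test was run.

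Genes were named by the bound of the interval nearest 0 (coding genes and lncRNAs), by mean TPM among genes past 1.5-fold, by zero counts, by the gap to the other lines, as the extremes and most abundant members of each list, as neighbours of MALAT1 and by copies of the 3′ UTR word. Further list members were named after their values were seen, and a few genes that these rules name are not reported here. The gene lists and the comparison were chosen with earlier results of these data known. The 3′ UTRs were read from the deposited annotation's positions on GRCh38, with the log2 length, its square and base shares as covariates of the word scan, in which log2 fold changes past 2 in either direction were set to 2. Promoters came from RefSeq (GRCh38.p14). Alternatives were other size factors, including TMM from edgeR 4.0.16 in R 4.3.3, other read minimums and pseudocounts, TPM, coding genes alone, and centring by length, which was chosen after the data were seen. Python 3.11.15, numpy 2.4.6, scipy 1.17.1, pandas 2.3.3 and matplotlib 3.10.9 were used, and the scripts were tested on simulated data.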

Additional observations from a re-analysis of the deposited data

Results flagged for a closer look

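Several lists and genes had a log2 fold change of one sign in H1299 and of the other sign in both other lines, though some list medians of A549 lie near 0. The differences between lines were not tested, since each line has 1 library a side. Among lists, the median log2 fold change of the replication-dependent histones was -1.03 in H1299, 0.58 in H460 and 0.19 in A549, and that of mitosis genes was -0.48, 0.19 and 0.06. For the matrix proteases it was 0.56, -0.40 and -0.01, and for the TGF-beta pathway 0.30, -0.15 and -0.06.

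Of 1035 genes at least 1.5-fold lower in H1299, 7 (0.676%) were at least 1.5-fold higher in both other lines. Over all 12733 genes tested in the 3 lines, 1.74% were higher in both, so such genes were rarer than that share. Readthrough genes and symbols starting LOC are not named here. Among those named, DDX11-AS1 was at -1.80 against 1.44 in H460 and 0.82 in A549. MESP1 was at -1.16 against 0.80 and 0.60, and ATOH8 at -1.13 against 1.19 and 0.66. The linker histone H1-5 was at -1.08 against 0.77 and 0.74. The antisense RNAs STAM-AS1 and PTPRG-AS1 were at -0.66 against 0.74 and 0.65 and at -0.62 against 0.96 and 0.61.

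Of 1045 genes at least 1.5-fold higher in H1299, 9 (0.861%) were at least 1.5-fold lower in both other lines, beside 2.26% of all 12733 genes. Among those named, the cytokine gene LIF was at 0.81 against -0.63 in H460 and -0.86 in A549. The ERK phosphatase gene DUSP5 was at 0.71 against -0.67 and -1.31, and the AP-1 member FOSL2 at 0.64 against -0.79 and -0.86. CDCP1, a membrane protein, was at 0.64 against -1.56 and -0.88, GPRC5A at 0.82 against -1.19 and -1.09, SEMA3B at 0.73 against -0.93 and -0.60, and LSMEM1 at 0.62 against -0.61 and -0.87. LUZP6 was at 1.36 against -1.67 and -0.59, but it shares a transcript with another gene, so its counts are uncertain.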

How the results depend on the processing

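No paired analysis was possible because each group has 1 library, and for the same reason no library could be left out. Alternatives were run for genes named by the interval bound, mean TPM, zero counts, the gap to the other lines or nearness to MALAT1. Of their values, 101 of 520 fell outside the gene's counting interval. Genes named only as list members or by the 3′ UTR word were not run. Among the genes that were run, no gene past 1.5-fold changed sign. Medians within 0.1 of 0 did for p53 targets, YAP/TAZ targets, G1 cyclins and CDK inhibitors, NRF2 targets, fatty acid synthesis, MHC class I, microRNA machinery and oxidative phosphorylation (-0.08, and 0.01 centred by length), and NEAT1, at -0.46 in reads, was at 0.48 on log2(TPM + 1). Genes at least 1.5-fold higher numbered 1640, against 2644 with a mean of at least 10 reads and 1054 on log2(TPM + 1), of which 933 were among the 1640. Genes at least 1.5-fold lower numbered 1327, against 2297 with a mean of at least 10 reads, 2035 with a read in each of the 6 libraries and 666 on log2(TPM + 1), of which 655 were among the 1327. Genes at a log2 fold change of 1.5 or more numbered 89, against 318, 179 and 13 in the same settings and 44 with a mean of at least 200 reads. Genes at -1.5 or less numbered 63, against 295, 210 and 15, 25 with at least 200 reads and 40 among protein-coding genes alone. The pseudocount of TPM draws low genes towards 0, and fewer or more genes pass each minimum by construction. List medians moved by less than their spread in 306 of 315 cases. On log2(TPM + 1) the histones were at -0.95 and DNA replication at -0.62, and centred by length the histones were at -0.86 and the mitochondrially encoded mRNAs at 0.47. The cytosolic ribosomal proteins, at -0.13, ran from -0.17 to -0.01. The median over all tested genes ran from -0.01 to 0.07 across scalings, and the share of calls that were higher, 55.3% as reported, ran from 48.0% to 61.3%. Genes with few reads are limited by counting error, and with 1 library a side no spread between cultures was measured.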

Other observations

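Several lists were near 0 in H1299. The median log2 fold change of nuclear-encoded oxidative phosphorylation genes was -0.08 with 0 of 61 higher and 1 lower, and that of heat shock genes -0.10 with 0 of 22 past 1.5-fold in either direction. Sterol synthesis genes were at 0.12 (3 higher, 1 lower of 24), fatty acid synthesis genes at -0.02 (1 and 1 of 18) and lysosome and V-ATPase genes at 0.13 (4 and 3 of 43). NRF2 targets were at -0.01 (2 and 4 of 25), and YAP/TAZ targets at 0.03 (2 and 4 of 28). The MHC class I genes were at 0.00 (2 and 0 of 19) and the microRNA machinery at 0.00 (2 and 0 of 13). Polycomb repressive complex 2 genes, which lay the H3K27 methyl mark, were at -0.12 (1 and 2 of 12).

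Epithelial and mesenchymal genes were at 0.13 with 4 of 22 higher and 0 lower. In this list the mesenchymal cadherin CDH2 had 3641 and 4757 reads and the transcription factor ZEB1 3247 and 3287. The keratins KRT8 and KRT18 had 14592 and 11408 reads and 27903 and 23857. Of the lists of other cell types, 1 leukocyte marker, 1 fibroblast marker and 0 endothelial markers were tested, and the leukocyte marker was CD68, with 3550 and 4045 reads.

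Some members of these lists stood apart from their list's median. AGO2, the Argonaute protein that cuts the targets of an siRNA, had 11017 reads in the control and 24216 in si-MALAT1, a value of 1.27 on the log2 scale. It was at 0.37 in H460 and 0.61 in A549. DICER1, which cuts microRNA precursors, had 17603 and 25231 reads, or 0.65. TALDO1, an enzyme of the pentose phosphate pathway, had 5242 and 1718 reads, or -1.48, and was at -1.21 in H460 and -2.05 in A549. HMOX1, which breaks down heme, had 544 and 1006 reads, or 1.02. Among the polycomb genes, JARID2 had 1413 and 2771 reads, or 1.10, while the histone-binding subunit RBBP4 had 16040 and 6945, or -1.08. In sterol synthesis, HMGCS1 had 4504 and 7623 reads.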
